A study of Mus musculus with 8 samples.

Results

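The regions described here are stretches of chromatin called open in granulosa cells after an ovulatory dose of hCG and not before it. They were also called open in cells without the progesterone receptor (PGR). They were chosen from the deposited peak lists of an ATAC-seq study in mice. The intervals of all 8 lists on chromosomes 1 to 19 and X were merged wherever they overlapped by 1 bp or more, which gave 98245 regions. A region was taken as a member if both hCG, both wild-type (WT) and both knockout (KO) lists held a peak in it and neither PMSG list did. This rule found 5780 members, which is 5.88% of all regions. Of the 44912 regions held by all 6 lists made after hCG, 12.9% were members. These shares follow from the rule and test nothing. Absence from a PMSG list means only that no peak was called there. The PMSG lists covered the least of the 8, at 29.8 and 29.9 Mb, against 38.2 to 43.9 Mb in hCG and WT.

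ATAC-seq marks open chromatin by letting the transposase Tn5 cut and tag it. All mice were 21 days old and had received 5 IU of eCG, also called PMSG, a hormone that makes follicles grow. The LH experiment used wild-type F1 mice of strain CBA x C57BL/6, with 2 libraries titled PMSG, whose mice were killed 46 h after eCG, and 2 titled hCG, whose mice also had 5 IU of hCG and were killed 6 h later. The PR experiment used strain C.129S7(B6)-Pgrtm1Bwo/OmcJ, with 2 WT and 2 PR knockout libraries, all from mice given hCG after eCG. Each library pooled the granulosa cells of 2 to 3 mice. The allele is a targeted one of Pgr and is carried in every cell of the mouse, not in granulosa cells alone. WT and KO mice share a strain that differs from that of the hCG and PMSG mice. In the LH experiment the labels disagree, since libraries titled hCG carry a tag of 0 h and those titled PMSG one of 6 h. Titles and source names were followed, so "gained after hCG" rests on them. KO replicate 2 and WT replicate 2 had the lowest and the highest member strength of the 6 libraries made after hCG, and results that rest on them are given with and without them.

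Granulosa cells line the ovarian follicle and feed the oocyte. The surge of luteinising hormone (LH), for which hCG stands in, raises cyclic AMP in them and turns on EGF-like ligands, prostaglandin and matrix genes and a set of transcription factors that includes the RUNX and AP-1 families, and the cells then turn into luteal cells. Pgr is itself induced by the surge, and mice without it do not ovulate. Distal open regions are often enhancers, which act on genes from a distance.

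Few members reached a transcription start site, and those that did are shown first because they are the members whose DNA could be read. RefSeq promoter windows of assembly GRCm38.p6, which run from 250 bases before to 50 after a start, were set against the members. Of 32619 windows, 116 overlapped a member by 1 base or more, and they belonged to 106 genes, of which 56 code for protein. The member covered the whole window in 57 of the 116. The following 6 windows lie wholly inside a member. Among protein-coding genes with such a window, Klrb1a, Hal, Akr1c18 and Ptpn22 are the 4 whose members were strongest. Akr1c18 and Pparg are in the gene lists below, and Hrh1 was added after its sequence was seen, for an AP-1 match. The 250 bases before the start are printed, 5′ to 3′ on the strand of the gene, and capitals mark every match, on either strand, to a motif searched.
Klrb1a, chr6:128622935-128623184, minus strand: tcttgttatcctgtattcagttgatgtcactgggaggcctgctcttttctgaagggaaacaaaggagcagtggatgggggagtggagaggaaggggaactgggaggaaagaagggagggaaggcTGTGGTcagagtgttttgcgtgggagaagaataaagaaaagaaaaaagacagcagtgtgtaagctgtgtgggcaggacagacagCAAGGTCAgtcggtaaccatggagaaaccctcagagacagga
Hal, chr10:93488518-93488767, plus strand: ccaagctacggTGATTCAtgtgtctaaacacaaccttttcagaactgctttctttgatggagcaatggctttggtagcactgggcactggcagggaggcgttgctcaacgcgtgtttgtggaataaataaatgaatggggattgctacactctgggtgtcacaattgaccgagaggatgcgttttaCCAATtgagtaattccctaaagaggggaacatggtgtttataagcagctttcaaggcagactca
Akr1c18, chr13:4150647-4150896, minus strand: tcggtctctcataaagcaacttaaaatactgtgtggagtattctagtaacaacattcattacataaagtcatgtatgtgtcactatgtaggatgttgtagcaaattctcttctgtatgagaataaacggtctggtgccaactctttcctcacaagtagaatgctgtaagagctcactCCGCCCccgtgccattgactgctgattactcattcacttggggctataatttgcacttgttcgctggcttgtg
Ptpn22, chr3:103860027-103860276, plus strand: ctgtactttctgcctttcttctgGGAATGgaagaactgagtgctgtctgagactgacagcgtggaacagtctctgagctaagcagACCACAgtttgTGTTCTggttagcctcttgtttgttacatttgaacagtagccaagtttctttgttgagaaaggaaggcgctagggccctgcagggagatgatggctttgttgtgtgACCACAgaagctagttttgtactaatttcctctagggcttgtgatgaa
Hrh1, chr6:114458272-114458521, plus strand: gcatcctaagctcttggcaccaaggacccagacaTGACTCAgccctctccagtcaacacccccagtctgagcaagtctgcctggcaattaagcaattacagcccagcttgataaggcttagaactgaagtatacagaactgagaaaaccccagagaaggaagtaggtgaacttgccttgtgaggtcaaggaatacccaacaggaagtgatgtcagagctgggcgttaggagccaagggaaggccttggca
Pparg, chr6:115421816-115422065, plus strand: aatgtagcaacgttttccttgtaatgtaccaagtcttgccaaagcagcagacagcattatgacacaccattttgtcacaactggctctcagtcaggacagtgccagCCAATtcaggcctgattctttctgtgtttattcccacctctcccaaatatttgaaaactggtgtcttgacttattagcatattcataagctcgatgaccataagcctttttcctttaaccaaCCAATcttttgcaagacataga

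The start of Klrb1a, a natural killer cell receptor gene, held TGTGGT, the core that RUNX factors bind, and CAAGGTCA, which NR5A receptors bind. The Hal sequence held TGATTCA, a form of the AP-1 motif TGANTCA, and CCAAT, the NF-Y motif, and Hal encodes histidine ammonia-lyase. The Hrh1 sequence held TGACTCA, another form of the AP-1 motif, and Hrh1 encodes a histamine receptor. Ptpn22, a phosphatase gene, held the RUNX core at 2 places before the start, written ACCACA because it lies on the other strand. It also held a TEAD match, GGAATG, and TGTTCT, which is the steroid receptor arm AGAACA read from the other strand. Akr1c18, which encodes the enzyme that breaks down progesterone in the corpus luteum, held CCGCCC, the SP/KLF motif GGGCGG read from the other strand. Pparg, which encodes a nuclear receptor of lipid metabolism, held CCAAT at 2 places. A match describes letters and is not evidence that a factor was bound.

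Over all windows that members overlapped, the AP-1, RUNX, TEAD and GATA motifs and the steroid receptor arm had shares whose intervals lay above the share in windows of regions held by all 8 lists. The interval of the full steroid receptor element did too, but it rests on 2 windows, too few to compare. For AP-1 and RUNX the intervals also lay above the share of all windows, for RUNX by a small margin. The motif TGANTCA stood in 27 of 116 member windows, which is 23.3% (Wilson 95% interval 16.5 to 31.7). It stood in 4.77% of the 14320 windows overlapped by regions held by all 8 lists, and in 7.85% of all 32619 windows. The RUNX core TGTGGT stood in 28 of 116, which is 24.1% (17.3 to 32.7), against 11.4% and 16.6%. The RUNX interval no longer cleared the share of all windows where peaks had to cover 25% of a region (19.7%, 13.8 to 27.3), without PMSG replicate 2 (20.7%, 15.2 to 27.6) or without hCG replicate 2 (23%, 16.4 to 31.2). Windows of 1 gene overlap each other, so these intervals cover counting error only and are too narrow.

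Motifs of CpG-rich promoters were rarer in member windows than in windows held by all lists. The SP/KLF motif GGGCGG stood in 29.3% (21.8 to 38.2) of member windows, against 66.6% of the windows held by all lists and 35.9% of all windows. The ETS motif CCGGAAG stood in 3.45% (1.35 to 8.53), against 17.0% and 8.92%. Without KO replicate 2 the ETS share was 6.4% (3.61 to 11.1), an interval that holds the share of all windows. The intervals also held it with the same number of peaks per list (5.43%), with −log10 q of 20 or more (5.69%), with 25% cover (4.55%), without PMSG replicate 2 (4.88%) and with 150 or more bases covered (3.26%). Member windows had a median GC content of 52.0%, and those of regions held by all lists 62.0%. In 18.1% of member windows there were 15 or more CpG, against 73.1% of the windows held by all lists and 34.9% of all windows. The part of this difference in base composition in the motif shares was not tested. The 60 windows overlapped by hCG-gained regions missing in both KO lists held the RUNX core in 23.3% (14.4 to 35.4) and TGANTCA in 16.7% (9.31 to 28.0), intervals that overlap those of the members. The 23 windows overlapped by PMSG regions closed after hCG held TGANTCA in 30.4% (15.6 to 50.9) and the RUNX core in 17.4% (6.98 to 37.1), which overlap them too. The GATA motif stood in 43.5% (25.6 to 63.2) of these 23 windows, an interval above that of the members, 6.67 to 18.2.

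The steroid receptor arm was near its share of all windows, and the full element stood in too few windows to compare. The arm AGAACA stood in 20.7% (14.3 to 28.9) of member windows, in 11.0% of windows held by all lists and in 19% of all windows. The full steroid receptor element, which contains that arm, stood in 2 of 116 member windows, or 1.72% (0.474 to 6.07), against 0.265% and 0.478%. Among the remaining motifs, the NF-Y motif stood in 31.9% of member windows, the TEAD motif in 19% (12.9 to 27), AGATAA, which GATA factors bind, in 11.2% (6.67 to 18.2), and the CTCF motif in 8.62%. In windows held by all lists these shares were 36.9%, 11.4%, 5.45% and 13.6%. At 25% cover TEAD stood at 15.9% (10.6 to 23.1) and GATA at 7.58% (4.17 to 13.4), so neither interval then cleared the share in windows held by all lists. The same held for GATA with the same number of peaks per list (9.78%, 5.23 to 17.6) and for TEAD with 150 or more bases of the window covered (16.3%, 10.1 to 25.2). The NR5A motif stood in 2.59%, the cyclic AMP response element TGACGTCA and the FOX motif TGTTTAC in 1.72% each, and TTGCGCAA, which C/EBP factors bind, in 0.862%. These rest on 1 to 3 windows each, and the FOX share was 3.25% without KO replicate 1 and 0.758% with 25% cover. Their shares of all windows were 37.6% for NF-Y, 14.6% for TEAD, 11.2% for GATA and 8.67% for CTCF, each inside the interval of the member windows.

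**Figure D1:**
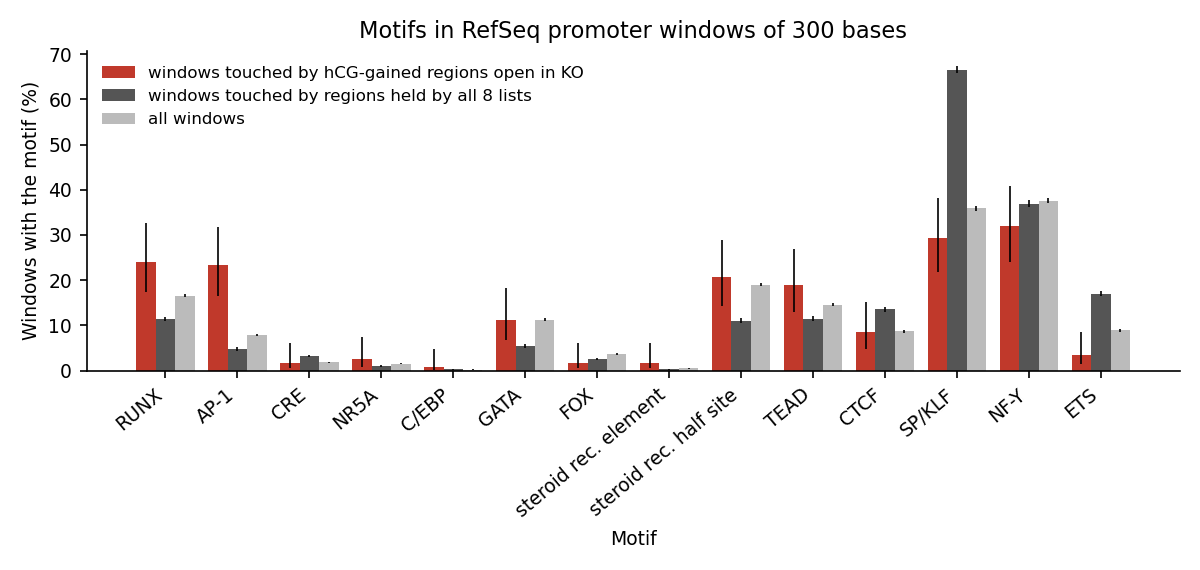
Share of 300-base RefSeq promoter windows that hold each motif on either strand (y axis, %) for the 14 motifs searched (x axis); bars are windows overlapped by members (n = 116), by regions held by all 8 lists (n = 14320) and all windows (n = 32619), and lines are Wilson 95% intervals. AP-1 stands at 23.3% in member windows against 7.85% of all windows, and SP/KLF at 29.3% against 66.6% in regions held by all lists.

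Of 1005 microRNA hairpins in the RefSeq table, 1 lay in a member. It is Mir7578 at chr2:27450549-27450630 on the minus strand, inside the member chr2:27450057-27450772. Its mature sequence is shown with the seed, bases 2 to 8, in capitals.
mmu-miR-7578: cAUGGCUCugucuucugccucaga
The RNA itself was not measured by these data.

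Each peak of a library carries the authors' fold enrichment over the local background, a linear ratio. By this measure the median over members was lower in every library than that over regions held by all 8 lists. The members' median fold was 8.58 and 8.87 in the hCG libraries, 8.31 and 10.5 in the WT libraries, and 8.31 and 6.24 in the KO libraries. Over the 37189 regions held by all 8 lists, the medians were 10.1 and 10.2 in hCG, 11.0 and 11.6 in WT, and 9.91 and 9.37 in KO. Single members ranged from 1.5 to 20.1 in KO replicate 1 and from 1.81 to 25 in WT replicate 2. The authors' median −log10 q over members was lowest in KO replicate 2, at 30.2, and highest in WT replicate 2, at 116.

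Fold depends on the library, so each member was also placed by its percentile among the regions held by all 8 lists, which are the same regions in every library. A percentile of 35.7 means that the median member was stronger than 35.7% of those regions. The median percentile was 35.7 in hCG replicate 1 and 37.6 in hCG replicate 2, 26.1 in WT replicate 1 and 41.0 in WT replicate 2, and 34.2 in KO replicate 1 and 19.1 in KO replicate 2. The hCG replicates lay close together and the WT and KO replicates far apart. The 2 KO libraries lay on either side of WT replicate 1, so the groups overlap.

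The mean over WT libraries was 33.5 ± 10.6 (SD, n = 2) and over KO libraries 26.7 ± 10.7 (SD, n = 2), a difference of 6.88 percentile points. This was within the spread between replicates, with p = 0.667 by the exact two-sided permutation test, which cannot go below 0.333 with 2 against 2. The difference was -0.596 without WT replicate 2 and -0.0663 without KO replicate 2. With percentiles taken among all intervals of a list, a scale that moves with the length of the list, it was 19.7 with p = 0.333 by the same exact test. The rule required a peak in all 4 of these libraries and so removed regions that fell below detection in KO, which limits the difference that the members can show. The peaks come from pools of cells, so fewer cells with an open region and less opening in each cell cannot be told apart.

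**Figure D2:**
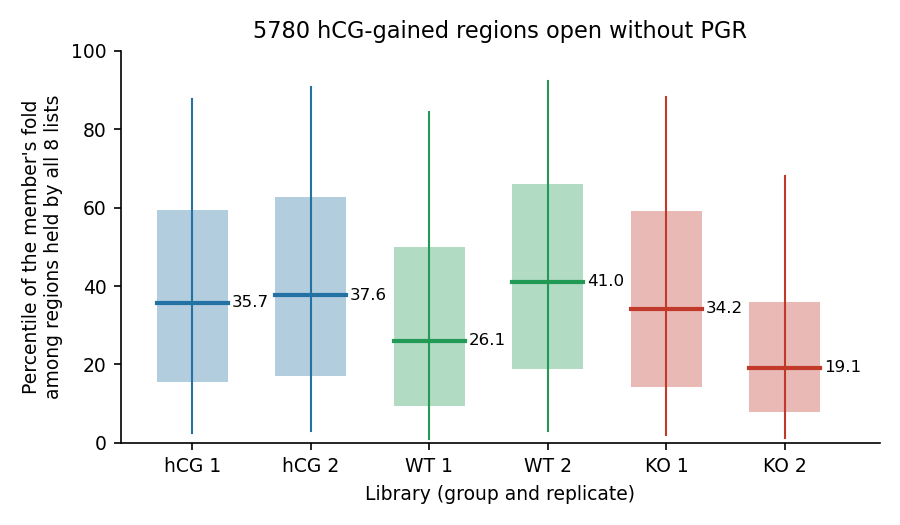
Percentile of each member's fold among the regions held by all 8 lists (y axis, 0 to 100) in the 6 libraries that hold the members (x axis); the line is the median over 5780 members, the box runs from the 25th to the 75th percentile of members and the whisker from the 5th to the 95th. KO 2 has the lowest median, 19.1, and WT 2 the highest, 41.0, while KO 1, 34.2, lies between the WT libraries.

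Member by member, 1289 of 5780 (22.3%) had a lower percentile in both KO than in both WT libraries, and 357 (6.18%) a higher one in both. Over the 48711 regions held by all 4 PR lists, 14.4% were lower in both and 13.9% higher in both. The members' share on the lower side thus stood above the background and that on the higher side below it. Both shares rest on WT replicate 2 and KO replicate 2. Without WT replicate 2, 25.8% of members were lower against a background of 29.3%, and 32.1% were higher against 31.9%. Without KO replicate 2, 27.9% were lower against 30%, and 30.1% were higher against 32.1%. In either case the members stood near or below the background on both sides.

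The libraries ordered the members alike. Spearman's rho between libraries over the 5780 members was 0.931 for the hCG pair, 0.884 for the WT pair and 0.753 for the KO pair. Across experiments and genotypes it was 0.877 between WT replicate 2 and KO replicate 1, and lowest, 0.645, between hCG replicate 2 and KO replicate 2. The points share base composition and width and were all selected for a peak in each library, so these values are descriptive.

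The members are part of a larger set. Both hCG and both WT lists held 11153 regions that neither PMSG list held. Of these, 5780 (51.8%, Wilson 95% interval 50.9 to 52.8) were in both KO lists and are the members, 2665 (23.9%) were in KO replicate 1 only, 345 (3.09%) in KO replicate 2 only, and 2363 (21.2%) in neither. Leaving KO replicate 2 out raised the KO-held share from 51.8% to 75.7%. Among the 39856 regions that both PMSG lists also held, 93.3% were in both KO lists. The 2 KO lists differ in the length they covered, with 38.9 Mb of peaks in replicate 1 and 31.7 Mb in replicate 2, against 43.6 to 43.9 Mb in WT. Whether this comes from detection or from the chromatin of the pools was not tested.

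Stronger regions in the 4 hCG and WT libraries, a measure that uses no KO value, were more often in the KO lists. Among hCG-gained regions it was 36.5% (34.6 to 38.4) at a mean percentile under 10 and 35.3% between 10 and 20. It was 61.7% between 40 and 50, and 96.5% (94.4 to 97.8) at 80 or above. Among regions that both PMSG lists held, the same bins gave 80.2%, 83.2%, 95.4% and 99.8%. At equal strength the share was lower for hCG-gained regions in every bin, with intervals that do not overlap. The difference was not tested, since the rule used the KO lists. The order was the same in KO replicate 1 alone, with 62.4% against 89.6% in the lowest bin and 99.3% against 99.9% in the highest, and in KO replicate 2 alone, with 41.6% against 85.0% and 96.7% against 99.9%. WT and KO libraries also differ in the number of peaks, and with the same number of peaks taken from every list, 70.4% of hCG-gained regions were held by both KO lists, against 97.5% of those that both PMSG lists held. Members made up 887 of the 2430 hCG-gained regions at a mean percentile under 10.

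**Figure D3:**
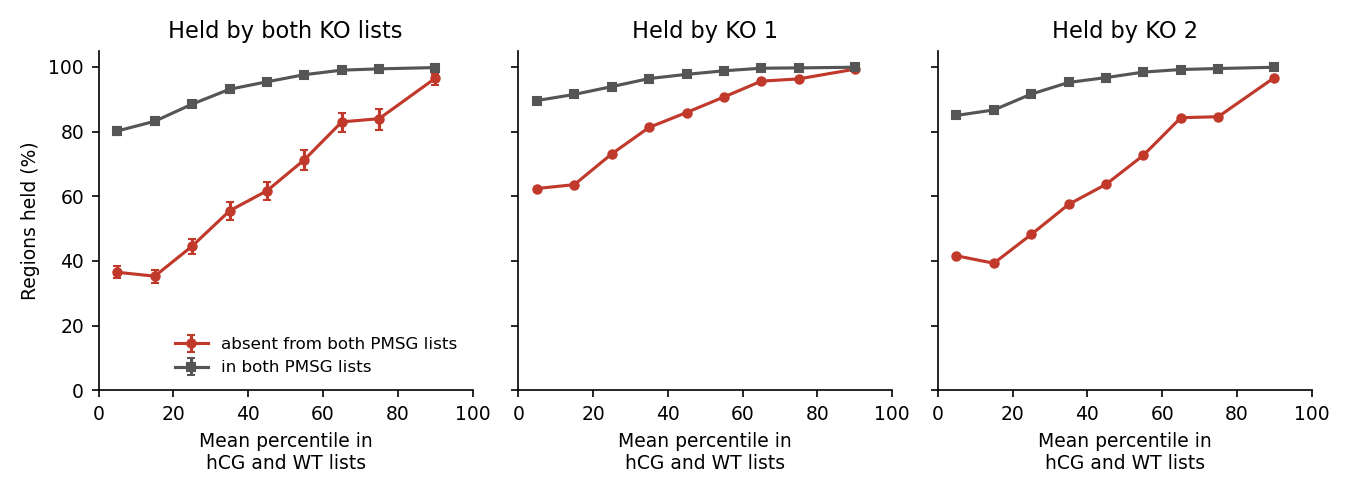
Share of regions held by both KO lists (left), KO replicate 1 (middle) and KO replicate 2 (right) on the y axis (%), by mean percentile in the hCG and WT libraries (x axis), for regions absent from both PMSG lists and regions in both; lines in the left panel are Wilson 95% intervals. The hCG-gained regions rise from 36.5% in the weakest bin to 96.5% in the strongest, and the regions also held by PMSG from 80.2% to 99.8%.

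Neighbours of the rule's threshold show how close the edge is. A further 1943 regions were in all 6 lists made after hCG and in 1 PMSG list, 743 of them in PMSG replicate 1 and 1200 in replicate 2, with a median PMSG fold of 5.99. The smallest −log10 q of a member over its 6 lists had a median of 27.7 and came from KO replicate 2 in 4516 members (78.1%). No list held a value under 10. Just inside, with a smallest −log10 q of 10, were regions near Rhox8 (chrX:37873586-37874374), in Samd4 (chr14:46884005-46884339) and in Ppm1k (chr6:57529153-57529574). Their folds ran from 2.20 to 2.92, from 1.81 to 2.30 and from 2.97 to 6.42. Just outside, with 1 PMSG peak at the threshold, were regions in Slc38a4 (chr15:97054876-97056043; PMSG fold 4.03), in Cntnap1 (chr11:101176193-101176693; 2.13) and in Arhgef28 (chr13:98096733-98097373; 3.97).

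Members were distal and of moderate width. Their median width was 521 bp, against 869 bp for regions held by all lists, 459 bp for all regions and 334 bp for hCG-gained regions missing in KO. A region joins the intervals of every list that holds it, so its width partly follows from the number of lists. The members' own intervals had median widths from 248 bp (KO replicate 2) to 424 bp (WT replicate 2). The middle of the distribution of member widths ran from 391 to 689 bp, with extremes at 177 and 2758 bp, and together members covered 3.28 Mb. Only 178 of 5780 (3.08%, Wilson 95% interval 2.66 to 3.56) had their midpoint within 1 kb of either end of a protein-coding gene, against 31.1% (30.6 to 31.6) of regions held by all 8 lists and 14.4% of all regions. Measured to RefSeq start sites on the chromosomes of that table, 156 of 5565 (2.80%) lay within 1 kb. The start-site table lacks chromosome 18 and some genes of the other chromosomes, so this share and the 116 promoter windows are lower bounds. The share was 3.51% (2.84 to 4.33) for hCG-gained regions missing in KO and 2.18% (1.58 to 3.01) for PMSG regions closed in all 6 other lists, and both intervals overlap that of the members.

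Most members lay far from a gene end. The median distance was 26.3 kb, against 8.50 kb for regions held by all lists, 20.1 kb for hCG-gained regions missing in KO and 38.1 kb for PMSG regions closed after hCG. The largest share, 39.6%, lay between 10 and 50 kb away, and 1118 members (19.3%) lay beyond 100 kb. Inside a protein-coding gene were 3198 (55.3%, 54.0 to 56.6), against 60.1% of all regions and 64.8% of regions held by all lists. The share was 61.9% (59.9 to 63.8) for the regions missing in KO and 49.5% (47.1 to 51.9) for PMSG regions closed after hCG. The nearest PMSG peak was a median 6.99 kb away, with 7.89% of members within 1 kb of one and 60.8% within 10 kb.

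Strength and position went together. Among the 578 members with the highest mean percentile, 1.38% were within 1 kb of a gene end, and the median distance was 38.5 kb. Among the 578 with the lowest, 6.40% did and the median distance was 7.27 kb. The strongest were also far from PMSG peaks, at a median of 14.2 kb against 1.80 kb for the weakest. By chromosome, members made up between 5.19% (chromosome 11) and 6.98% (chromosome 13) of all regions.

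**Figure D4:**
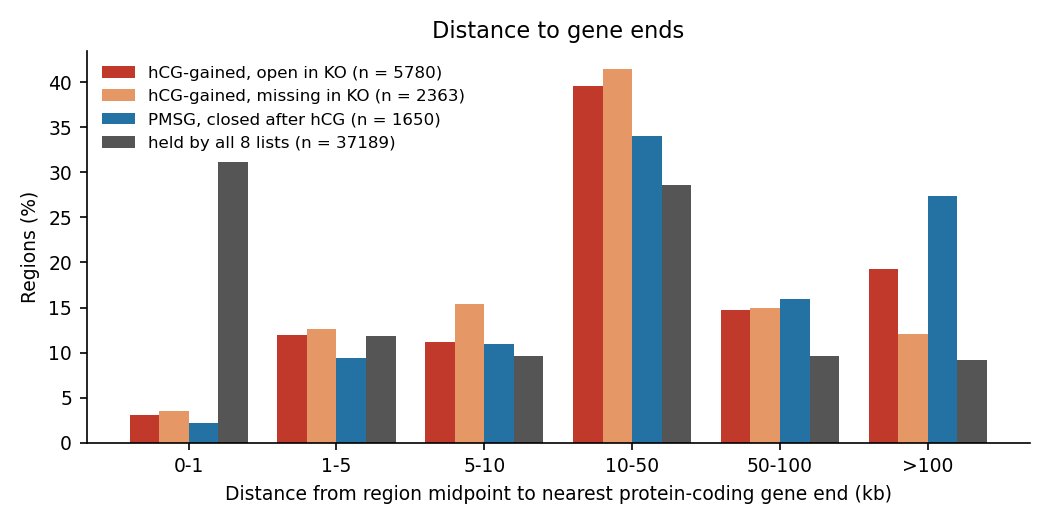
Share of regions (y axis, %) by distance from the midpoint to the nearest end of a protein-coding gene (x axis, kb) for members, hCG-gained regions missing in KO, PMSG regions closed after hCG and regions held by all 8 lists. Members have 3.08% within 1 kb and 39.6% between 10 and 50 kb, whereas 31.1% of regions held by all lists are within 1 kb.

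The strongest member lay in Cfap299, a cilia gene, at chr5:98516060-98516709, 187 kb from the gene's nearer end and 3.13 kb from a RefSeq start site. Folds belong to their own library and over regions held by all lists they were also lower in KO than in WT, so the orders of fold given from here on describe the lists. The fold at Cfap299 was 19.9 and 20.3 in hCG, 19.8 and 22.5 in WT, and 18.7 and 19.4 in KO, and its mean percentile was 99.5. The KO folds lay just below those of WT, although KO replicate 2 was the weakest library over all members. The next lay 322 kb from Itga1, an integrin gene, at chr13:115423461-115424283, with folds of 18.1 and 19.6 in hCG, 19.8 and 23.8 in WT, and 17.9 and 18.6 in KO. The third, at chr12:77887410-77887918, lay 309 kb from Gm6657, with folds of 19.6 and 20 in hCG, 22.4 and 25 in WT, and 18.6 and 16.2 in KO. All 3 were thus high in every library made after hCG, with KO folds under those of WT. On the percentile scale the KO values at Cfap299, 99.5 and 99.4, lay within the 98.7 to 99.5 of WT, and those at the Itga1 region, 99 and 98.9, within the 98.7 to 99.8 of WT. At the third the KO percentiles, 99.5 and 94.1, were below both WT values, 99.8 and 99.9.

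Others among the 10 strongest lay in Xrcc4, a DNA repair gene, in Phactr1, near Heca, near Gm46240, in Sema3a, which encodes an axon guidance ligand, and in Akap13 (chr7:75633853-75634617), which encodes an anchor of protein kinase A. Their mean percentiles ran from 97.2 to 98. Phactr1 had a fold of 20.1 in KO replicate 1 and 17.9 in KO replicate 2, against 16.9 and 23.3 in WT, so its KO values fell between those of WT. None of the 10 lay within 20 kb of a gene end, the nearest being the region near Heca at 23.8 kb.

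Among members within 1 kb of a gene end, the strongest lay in Zfp871 (chr17:32765604-32766442), a zinc finger gene, with folds of 15.6 and 16.8 in hCG, 17.5 and 22.9 in WT, and 17.0 and 17.7 in KO. The second lay in Kdm4d (chr9:14462212-14463169), a histone demethylase gene, with 16.3 and 16.0 in hCG, 18.6 and 21.0 in WT, and 15.6 and 13.2 in KO. In Wnt2b (chr3:104944851-104945492), a WNT ligand gene, the folds were 14.9 and 14.7, 15.6 and 18.8, and 14.7 and 8.77 in the same order, so that KO replicate 2 stood apart from the other 5. The member at Klrb1a, whose start is printed above, had 13.8 and 13.7 in hCG, 13.8 and 16.2 in WT, and 12.1 and 14.1 in KO, with the KO libraries on either side of WT replicate 1. The rest of the 10 lay at Zdhhc2, Epha2, a receptor tyrosine kinase gene, Spata4, Ngp, Epdr1 and Wt1 (chr2:105174113-105174621), a transcription factor gene of the developing gonad, with mean percentiles from 69.6 to 78.3.

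Gene lists for the ovulating follicle were then read for members in the gene body and 10 kb on each side. Over all 21631 protein-coding genes, 3199 (14.8%) had 1 or more members, and members were 4413 of 88885 regions counted per gene (4.96%). Long genes have more room for members, so the share of a list's own regions is given beside its gene count. The 12 pathway lists together held 107 members. Counts follow from the rule, since PMSG, WT and KO presence chose the members, and no list was tested.

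**Figure D5:**
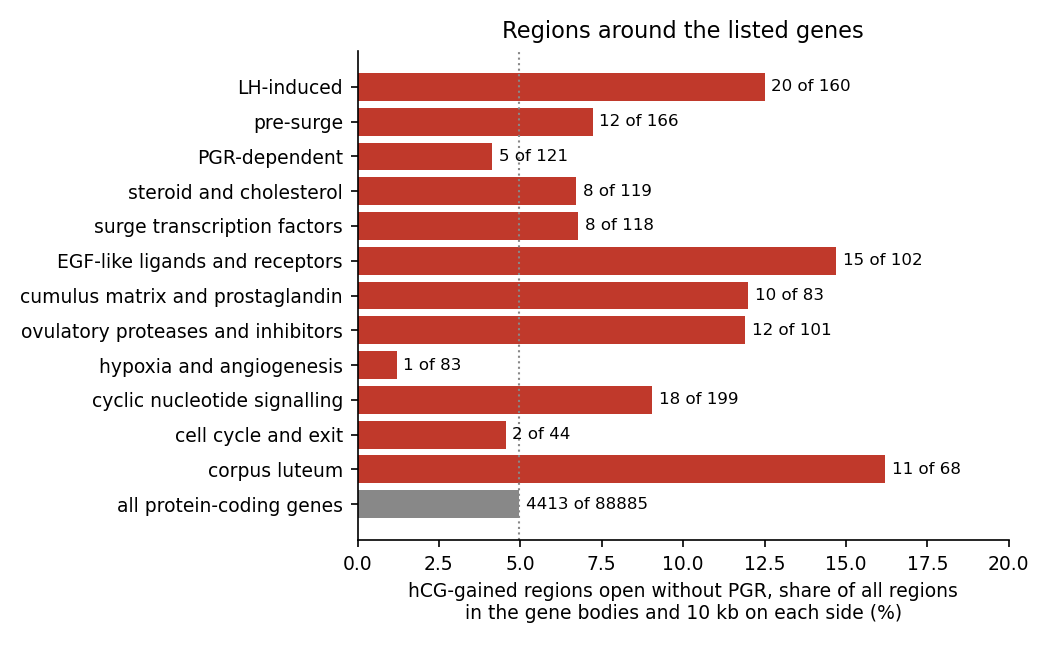
Members as a share of all regions in the gene bodies and 10 kb on each side (x axis, %) for 12 gene lists and for all protein-coding genes (y axis); numbers are members of regions, and the dotted line is the share over all genes, 4.96%. The corpus luteum list, 11 of 68, and the EGF-like list, 15 of 102, lie farthest right, and hypoxia and angiogenesis, 1 of 83 (8 members with 50 kb on each side), farthest left.

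In the EGF-like list, 5 of 12 genes had members, and members were 15 of 102 regions (14.7%), with 1 region missing in both KO lists (0.980%, against 2.29% over all genes). Btc, which encodes the ligand betacellulin, had 4 members among 7 regions. The strongest lay inside Btc at chr5:91375380-91375962, with a fold of 16.1 in both hCG libraries, 19.9 and 20.1 in WT, and 16.1 and 9.81 in KO. The KO values were under those of WT, and that of replicate 2 was the lowest of the 6. A second, at chr5:91385766-91386525, had 14.5 and 13.5 in hCG, 14.4 and 15.7 in WT, and 12.8 and 7.71 in KO, the same order. Epgn, the gene of epigen, had 3 members among 7 regions, all weaker, with folds from 2.44 to 6.85. Ereg, the gene of epiregulin, had 2 among 8, and Areg, the gene of amphiregulin, had none among 2.

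These ligand genes stand side by side on chromosome 5. From Epgn to Btc with 10 kb on each side (chr5:91017517-91412994, 395 kb), a stretch chosen after its values were seen, 10 of 37 regions (27%) were members, 1 was missing in both KO lists and 10 were held by all 8 lists. Members spanned the whole range of strength there, from a mean percentile of 0.399 near Epgn to 89.0 in Btc. On the receptor side, Egfr had 4 members among 29 regions, with folds from 3.88 to 10.2. At 3 of the 4 both KO percentiles lay above both WT percentiles. These were chr11:16806716-16807684, with 11.6 and 18.7 in WT and 27.1 and 19.8 in KO, chr11:16904573-16904952, with 1.71 and 4.05 against 12.3 and 8.03, and chr11:16918627-16919106, with 6.51 and 19.4 against 21.3 and 24.4. The fourth and strongest, chr11:16843957-16844628, had the opposite order, with 32.9 and 24.4 in WT and 19.5 and 8.58 in KO. By fold, both KO values exceeded both WT values only at chr11:16904573-16904952, with 5.81 and 5.03 against 3.88 and 4.92. At the fourth both KO folds were below both WT folds, and at the remaining Egfr members the folds of KO and WT overlapped. Nrg1, an ErbB ligand gene, had 2 members among 16 regions. The member of Nrg1 at chr8:31907380-31908054 had 13.0 in both hCG libraries, 12.6 and 17.3 in WT, and 10.8 and 7.91 in KO.

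The list of LH-induced genes held 20 members among 160 regions (12.5%), at 6 of 17 genes, and 10 of the 20 were in Runx2. This gene of a RUNX transcription factor had 40 regions over 319 kb, of which 10 were members, 9 were held by all 8 lists and 1 was missing in both KO lists. Its strongest member, at chr17:44546673-44547183, had 8.12 and 9.26 in hCG, 11.6 and 13.6 in WT, and 9.28 and 5.72 in KO. The other 9 in Runx2 had mean percentiles of 2.87 to 12.1, so they were among the weaker members. Runx1 had 1 member, at chr16:92823542-92824653, with folds of 7.21 and 7.43 in hCG, 7.35 and 8.14 in WT, and 6.85 and 6.06 in KO. Star, whose protein moves cholesterol into mitochondria, had 2 within 10 kb, of which the one at chr8:25799765-25800485, inside the neighbouring gene Lsm1, had 7.67 and 7.06 in hCG, 9.38 and 10.5 in WT, and 7.09 and 9.72 in KO. There the KO libraries did not lie below both WT libraries. The other, at chr8:25808187-25808693, lay 0.034 kb from an end of Star and was weak, with folds from 2.78 to 4.14 and a mean percentile of 1.74. Ptgs2, Has2, Pgr and Cyp11a1 had no member.

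Cyclic nucleotide genes had members at 9 of 14 genes, the highest share of genes of any list (64.3%), and members were 18 of 199 regions (9.05%). Phosphodiesterase genes, whose enzymes break down cyclic AMP or cyclic GMP, held most of them, with 5 in Pde10a, 4 in Pde4d, 2 at Pde8a and 1 each in Pde4b and Pde7b. These are long genes, and the median gene length of the list was 76.6 kb against 17.3 kb for all genes. The Pde4d member at chr13:109659028-109659451 had 13.7 and 16.8 in hCG, 12.5 and 16.3 in WT, and 14.2 and 10.3 in KO. The Pde10a member at chr17:8562066-8563084 had 13.7 and 14.9 in hCG, 14.5 and 16.8 in WT, and 11.3 and 10.2 in KO. KO lay under WT in the second and overlapped it in the first. Prkg2, which encodes a cyclic GMP-dependent kinase, had 2, and Prkar1a and Prkar2b, which encode regulatory subunits of protein kinase A, had 1 each, as did Rgs2.

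In the corpus luteum list, 5 of 10 genes had members, and members were 11 of 68 regions (16.2%), or 6 members with no flank around the genes. Prlr, the prolactin receptor gene, had 4 among 19, the strongest at chr15:10192004-10192669 with 10.1 and 9.84 in hCG, 8.05 and 11.4 in WT, and 9.63 and 9.03 in KO. Both KO values fell between the WT values. Lhcgr, the receptor through which hCG acts, had 2 among 9, both inside the gene. The one at chr17:88777712-88778205 had 10.3 and 10.9 in hCG, 8.31 and 13.1 in WT, and 10.6 and 8.52 in KO. Akr1c18 had 2 among 6, and the one over its start, chr13:4150434-4150955, had 9.90 and 8.89 in hCG, 12.2 and 14.5 in WT, and 11.8 and 9.91 in KO. Ptgfr, the gene of the receptor for prostaglandin F2-alpha, had 1.

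The cumulus matrix and prostaglandin list held 10 members among 83 regions (12%), at 6 of 13 genes, or 6 members with no flank. Slco2a1, the gene of a prostaglandin transporter, had 4 among 8, and the strongest, at chr9:103061625-103062124, had 10.3 and 10 in hCG, 11.6 and 9.69 in WT, and 11.4 and 6.04 in KO. Ptgs1, a cyclooxygenase gene, had 2, and Ptges, Cd44, the gene of a hyaluronan receptor, Hapln1 and Tnfaip6, whose products bind hyaluronan, had 1 each. In the protease list, 7 of 17 genes had members, and members were 12 of 101 regions (11.9%), with 4 regions missing in both KO lists (3.96%). With −log10 q of 20 or more the protease list had 6 members. Serpine2, a protease inhibitor gene, had 3, while Plat and Plau, the genes of the plasminogen activators, and Adamts9 had 2 each. The Plau member at chr14:20850504-20851049 had 10.1 and 11.5 in hCG, 10.1 and 15 in WT, and 11.1 and 11.3 in KO, so KO lay between the WT libraries.

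Transcription factors of the surge had 8 members among 118 regions (6.78%), at Crem, Klf4, Atf3, Fosb, Jun and Jund. The Klf4 member at chr4:55541372-55541995 was the strongest of them, with 12.1 and 12.9 in hCG, 13.4 and 15.9 in WT, and 15.1 and 7.91 in KO, and those at Jun and Jund were among the weakest members, with folds from 1.5 to 3.19. With −log10 q of 20 or more, or the same number of peaks per list, this list had 1 member, and with no flank 3. The steroid and cholesterol list had 8 members among 119 regions (6.72%), including 2 each at Star and Abca1, a cholesterol exporter gene, and 1 each at Scarb1, Npc1 and Fdxr. Without PMSG replicate 2 it had 13, and with no flank around the genes 4. Genes expressed before the surge had 12 among 166 (7.23%), with 3 each in Foxo1 and Inhba and 2 each in Nr5a2 and Lhcgr. Apart from those in Lhcgr, they had folds of 2.03 to 5.69.

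In the remaining lists the share of regions that were members was near or under the 4.96% of all genes. Genes known to depend on PGR had 5 members among 121 regions (4.13%, near that of all genes) and 15 regions missing in both KO lists (12.4%, against 2.29% over all genes). Zbtb16, a zinc finger gene that steroid receptors induce, had 8 of those 15 and 1 member, at chr9:48806480-48807263. Its folds were 14.4 and 13.2 in hCG, 15.5 and 15.9 in WT, and 14.9 and 8.63 in KO. On the percentile scale KO replicate 1, at 90.5, lay above both WT values, 84.7 and 80.6, and KO replicate 2, at 43.2, below them. Pparg and Prkg2 had 2 members each and no region missing in both KO lists. The Pparg member whose start is printed above had 8.49 and 8.55 in hCG, 6.96 and 8.06 in WT, and 7.59 and 6.08 in KO. Hypoxia and angiogenesis genes had 1 member among 83 regions (1.20%), in Angpt2, a ligand gene of blood vessel growth, and 4 regions missing in both KO lists (4.82%). Without PMSG replicate 1, or without PMSG replicate 2, it had 2 members, and with 50 kb on each side 8, a count that depends on the flank. Cell cycle genes had 2 among 44 (4.55%), at Cdk1 and Cdk4, a share near that of all genes.

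Counting the marker lists as well, 115 members lay at listed genes, and 24 of them (20.9%) had a lower percentile in both KO than in both WT libraries, near the 22.3% of all members, while 13 (11.3%) had a higher one in both, against 6.18% of all members. The shares over all members rest on WT replicate 2 and KO replicate 2, and for the listed members this was not tested.

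Over all genes, those with most members were Auts2 with 11 of 81 regions, Runx2 with 10 of 40, Babam2, Lpp and Mast4 with 9 each, and Pakap, Msi2 and Foxp1, a forkhead factor gene, with 8 each. Nedd9, an adaptor of cell adhesion, and Exoc4, a subunit of the exocyst, had 7 each, as did Supt3, Etv6, Arhgap26, Aff3 and Sox5. Auts2 is 1106 kb long. Nedd9 is 177 kb long, and members were 26.9% of its 26 regions, the highest share of these 15 genes, against 4.96% over all genes. One gene had 11 members and 2437 genes had 1.

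Members were joined into chains where the gaps were 20 kb or less. This left 4458 members alone, and 1322 (22.9%) fell into 603 chains of 2 or more. The longest chains had 5 members, 1 in Exoc4 (chr6:33843258-33888181, 44.9 kb, 8 regions in all) and 1 in Plpp3 (chr4:105213179-105264029, 50.9 kb, 12 regions in all), the gene of a lipid phosphatase. A further 20 chains had 4 members, and the 3 with the shortest spans were taken from this tie, so their tightness follows from that choice. The shortest lay near Sptssa, where 4 members filled 10.5 kb (chr12:54443376-54453859) with no other region among them. In Lpcat3, an enzyme gene of phospholipid remodelling, 4 of 5 regions in 11.9 kb were members, and in Tmem44 4 of 6 in 15.2 kb. Of the 22 chains of 4 or more members, 2 held a region missing in both KO lists. Chains were not formed for other sets of regions, so these counts have no background and describe the members alone.

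The whole series sets the limits of these values. KO replicate 2 had the fewest intervals, 55654, and WT replicate 2 the most, 84313, and the lists covered 29.8 to 43.9 Mb. They give no read counts, so the depth behind a peak is unknown, and intervals cover counting error only. At the Pgr start the WT, hCG and PMSG lists each held 1 interval and both KO lists 2, and Pgr had no member. Whether this difference comes from the targeted allele was not tested. Of 12 granulosa markers, 10 to 11 had a peak within 1 kb of a gene end in every library, against 2 of 6 endothelial, 1 to 2 of 6 immune and 1 to 3 of 6 oocyte markers. Theca markers had 4 to 5 of 6 and smooth muscle and stroma markers 4 to 5 of 6, and their part in the members was not tested. Members lay at 6 of 12 granulosa, 2 of 6 theca (Ptch1 and Lhcgr), 1 of 6 endothelial (Cdh5), 1 of 6 immune (Cd3e), 1 of 6 stroma (Pdgfra) and 0 of 6 oocyte marker genes, against 14.8% of all genes. As a share of each list's regions they were 11 of 136 (8.09%) for granulosa, 5 of 38 (13.2%) for theca, 2 of 28 (7.14%) for endothelial, 1 of 17 (5.88%) for immune, 1 of 26 (3.85%) for stroma and 0 of 13 for oocyte markers, against 4.96% over all genes.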

How the data were processed

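ATAC-seq peak lists of 8 granulosa cell libraries were used, 2 per group, as deposited. Reads were aligned with Bowtie2 to mm10 and peaks called with MACS2, per the submitters' processing notes; versions, filters and any Tn5 shift are not given in the sources used here. Peaks were called per library. Column 7 of the deposited lists is the authors' fold enrichment, a linear ratio. Columns 8 and 9 of the deposited lists hold −log10 p and −log10 q, and column 5, a score the authors deposited, was not used. A prefix on peak names is found in the PR experiment alone, so processing by the authors may have differed between the experiments.

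Summits of 1 interval were joined, keeping the best fold and −log10 q. Intervals on chromosome Y (3 to 9 per list) and contigs (7 to 10 per list) were left out. Coordinates are mm10, counted from 1. Genes, promoter windows and microRNAs came from RefSeq tables of GRCm38.p6. The gene table has no strand or exons, so distances run to either gene end. No genome was used, so motifs were searched in promoter windows only. Percentiles were taken within each library among regions held by all 8 lists. Named regions were the 10 strongest members, the 10 strongest within 1 kb of a gene end, the listed genes with members, the 10 genes with most members (with ties, 15), the 5 longest chains (ties by the shortest span) and 3 regions on each side of the threshold. Some regions that this rule names are not reported here. Members, lists and rules were chosen with earlier results of these data known.

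WT and KO were compared by exact permutation of library medians. Scripts used Python 3.11.15, pandas 2.3.3, numpy 2.4.6 and scipy 1.17.1, and were tested on simulated peak lists. Alternatives changed the peaks used, the threshold, the overlap, the distances and the libraries.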

Additional observations from a re-analysis of the deposited data

How the results depend on the processing

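The number of members was 4933 with the same number of peaks (55654) from each list, 5265 with −log10 q of 20 or more, 6144 where peaks had to cover 25% of a region, and between 5790 and 8453 with 1 library left out. The share of hCG-gained regions held by both KO lists was 70.4% with the same number of peaks, 48.5% with −log10 q of 20 or more, and 45.3% to 75.7% with 1 library left out, highest without KO replicate 2. Members lower in both KO libraries were 25.2% (background 15.2%) with the same number of peaks, 21.2% (14.3%) with 25% cover and 18.2% (12.9%) by −log10 q in place of fold. With 1 library left out they were 21.7% (14.3%, without hCG replicate 2) to 61.0% (30.9%, without WT replicate 1). Members higher in both were 5.07% (13.5%), 7.03% (13.9%) and 8.24% (13.6%) under the first 3 settings. With 1 library left out they were 6.24% (13.9%, without hCG replicate 1) to 32.1% (31.9%, without WT replicate 2). With 1 WT or KO library fewer the background itself is larger.

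The WT minus KO difference ran from -0.596 to 14.4 with 1 library left out. It changed sign without WT replicate 2 (-0.596) and without KO replicate 2 (-0.0663), and the cause was not tested. The labels give WT and KO the same replicate numbers. With the replicate number as a block the difference was 6.88 (pairs of -8.13 and 21.9, exact sign-flip p = 1, smallest possible 0.5). The deviations of same-numbered libraries correlated at -0.121 over members and 0.114 over regions held by all lists, so the numbers were not taken as pairs, and the crossed pairing gave exact p = 0.5.

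The gene-end share was 15.1% within 5 kb, against 42.9% of regions held by all lists, and the pathway lists held 175 members with 50 kb on each side. Settings named for members higher or lower in both KO libraries and for the KO-held share, the windows covered by 150 bases or more and the crossed pairing were chosen after seeing the data. Motif windows centred on regions were not run, since only promoter windows were at hand. Read depth is unknown. Of the libraries, KO replicate 2 raised the member count most when left out, and the reason was not tested.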
